A study of Mus musculus with 12 samples.

Results

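Prdm12, its opposite-strand neighbour Gm13425 and 4 genes of the G9a/GLP complex (Ehmt1, Ehmt2, Wiz and Zfp644) were followed through RNA-seq of dorsal root ganglia, which hold the cell bodies of sensory neurons. These 6 genes were picked by name out of 55416 in the count tables, and all 6 passed the filter on low counts. The 12 libraries came from adult C57Bl6 mice and hold poly(A) RNA without strand information. In the 6 inducible knockout (iKO) libraries a tamoxifen-activated Cre, expressed from the Rosa26 locus and so not limited to one cell type, met 2 floxed Prdm12 alleles (Rosa26CreERT2; Prdm12 Fl/Fl), and ganglia were taken 1 month after tamoxifen. The 6 controls were of mixed kinds. Control 1 had Cre and 1 floxed allele, controls 2 and 3 had 1 floxed allele and no Cre, and control 4 had Cre and 0 floxed alleles. Tamoxifen was given to each of these 4. Corn oil was given to controls 5 and 6, whose genotype was that of the iKO mice. Controls 1 and 2 and iKO 1, 2 and 3 were female and the other 7 libraries male. Whether a library is 1 animal is not said. A p-value here measures only the spread among these samples, which may be technical among libraries with the same sex, genotype and agent.

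PRDM12 is a transcriptional regulator with a PR domain and zinc fingers. Without it the neurons that sense pain (nociceptors) do not form, and loss of its function in people causes an inability to feel pain. G9a (Ehmt2) and GLP (Ehmt1) are histone methyltransferases that work as a pair and place the repressive mono- and dimethyl marks on lysine 9 of histone H3. PRDM12 has little enzyme activity of its own and is thought to repress genes by recruiting G9a. WIZ and ZNF644 (Zfp644) are zinc finger proteins that bind the pair and direct it to chromatin.

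Prdm12 and Gm13425 share exon bases, which bears on their counts. In GENCODE M21 Prdm12 has 5 exons with 2471 bases on the plus strand of chromosome 2, and its last exon holds 1727 of them (69.9%). Gm13425, an antisense non-coding gene, has 3 exons with 5391 bases on the minus strand. Its exon 2, of 200 bases, lies wholly inside the 285 bases of Prdm12 exon 1. Its exon 1, of 13 bases, lies in the first Prdm12 intron, and its exon 3, of 5178 bases, lies upstream of the Prdm12 start. The shared stretch is therefore 8.09% of Prdm12's exon bases and 3.71% of Gm13425's. Reads from it cannot be assigned to a strand in these libraries. The RefSeq span of Prdm12 reaches 5011 bases further upstream and covers 3605 of the 5178 bases of Gm13425 exon 3. Which annotation release was used for counting is not given in the sources used here, so reads of that exon could also have been shared. The labels do not name the floxed exons either.

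**Figure D1:**
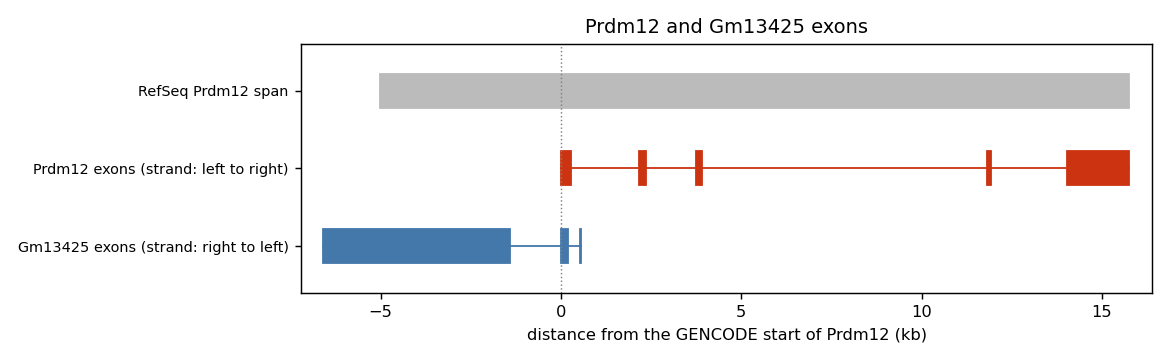
Exons of Prdm12 and Gm13425 (GENCODE M21) and the span of Prdm12 in RefSeq; the x axis is the distance in kb from the GENCODE start of Prdm12, boxes are exons and thin lines introns. The 200-base exon 2 of Gm13425 sits inside Prdm12 exon 1, and the 5178-base exon 3 lies upstream.

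Both sequences below are from the stretch where the pair of genes lie together. The first is the 250 bases before the start that the RefSeq promoter table gives for Prdm12 (chr2:31639787-31640036, plus strand, build GRCm38.p6), with CG dinucleotides in capitals. That start is the first base of the GENCODE transcript, not the upstream end of the RefSeq span, and the 250 bases lie in the second intron of Gm13425. The second is the coding part of the shared stretch, bases 63 to 206 of the Prdm12 transcript in GENCODE M21, with the start codon in capitals.
Prdm12 promoter: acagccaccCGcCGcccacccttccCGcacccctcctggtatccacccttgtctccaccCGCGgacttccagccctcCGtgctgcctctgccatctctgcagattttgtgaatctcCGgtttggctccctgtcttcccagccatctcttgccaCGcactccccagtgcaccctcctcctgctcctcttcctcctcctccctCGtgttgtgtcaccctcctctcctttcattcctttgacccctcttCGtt
Shared coding stretch: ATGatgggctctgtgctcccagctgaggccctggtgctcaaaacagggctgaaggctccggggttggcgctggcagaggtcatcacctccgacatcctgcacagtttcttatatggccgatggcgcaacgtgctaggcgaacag
The shared coding stretch holds the first 48 of 365 codons of Prdm12. The upstream window holds 10 CG dinucleotides and 61.2% G or C. Of 32851 RefSeq promoters, 37.8% have at least as many CG in the same window, and the median is 6. Among the 6 genes, 5 have a RefSeq promoter entry.

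Total counts ran from 13943784 to 20377766 per library. The markers of sensory neurons and nociceptors were abundant in every library: the 10 nociceptor markers summed to 6652 ± 389 per 1000000 counts in controls and 6473 ± 310 in iKO (SD, n = 6 each). Of 4 markers of spinal cord, Slc32a1 and Mog averaged under 10 counts per library, while Gad1 and Gfap had 251 and 1141 counts in all. The 4 markers summed to 17.1 per 1000000 counts in control 1, 15.1 in iKO 1 and 12.8 in control 6. The other libraries had 3.59 to 9.36. Library iKO 1 stood apart. It had the most macrophage marker counts (209, against 68.3 to 111 in the others) and fibroblast marker counts (2634 against 942 to 1489). It had the fewest nociceptor marker counts (5870 against 6255 to 7279). Its marker counts were also the highest for Schwann cells (6774 against 3867 to 5471) and satellite glia (3879 against 2520 to 3019). The same held for endothelium (160 against 59.4 to 86.2) and red blood cells (304 against 71.9 to 263). Control 6 had the most muscle marker counts (373 against 13.4 to 78.3). A gene is called where its p in the edgeR quasi-likelihood test, adjusted by Benjamini-Hochberg over 16384 genes, is under 0.05. Of 53 marker genes tested between iKO and control, 0 were called and 3 had an unadjusted p under 0.05. With limma-voom 0 were called, and with DESeq2 2.

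Prdm12 was lower in every iKO library than in any control. Levels are given in CPM, counts per 1000000 of the TMM-scaled library (trimmed mean of M-values). Controls had a lowest, median and highest Prdm12 level of 64.6, 124 and 147 CPM, and iKO libraries of 18.6, 23.9 and 25.4 CPM. These rest on 1047 to 2024 counts in controls and 348 to 508 in iKO libraries. Means were 117 ± 29.4 and 23.3 ± 2.51 CPM (SD, n = 6 each), so 19.9% of the control level remained. The low end of the controls was control 6 alone, at 64.6 CPM, while the other 5 lay between 107 and 147 CPM. The log2 fold change was -2.33 ± 0.18 (SE, 95% interval -2.72 to -1.94; edgeR, Benjamini-Hochberg adjusted p = 8.59e-05), the fourth smallest p of all genes. In whole ganglia, fewer cells of a type and less RNA per cell cannot be told apart.

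Set against nociceptor RNA, the size of the difference hardly moved. Per 1000 counts of the 10 nociceptor markers, Prdm12 gave 17.6 ± 4.04 counts in controls (10.4 to 22.1) and 3.58 ± 0.204 in iKO libraries (3.36 to 3.81; SD, n = 6 each), or 20.4%. The groups did not overlap, and the log2 difference of -2.26 had p = 0.00216 in an exact 2-sided permutation test, the smallest that 924 relabellings can give. The 10.4 was again control 6.

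**Figure D2:**
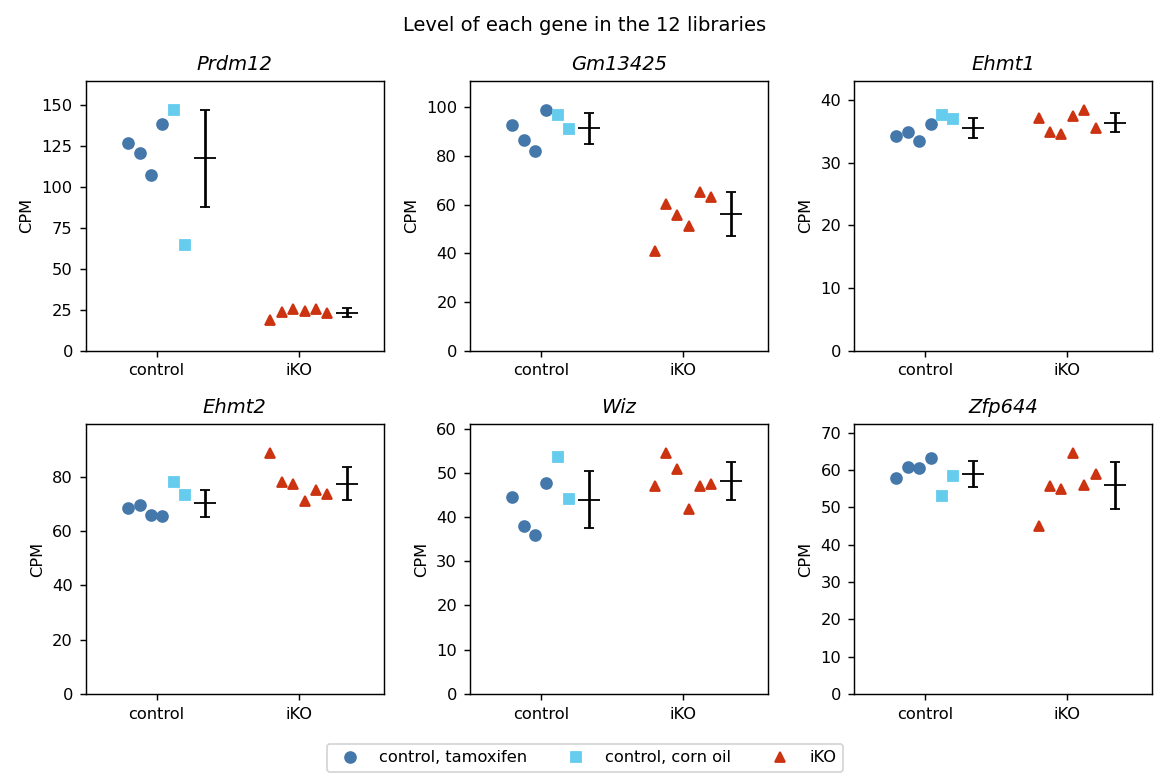
Level in CPM (y axis, from 0) of each of the 6 genes in the control and iKO libraries; each point is a library, coloured by injected agent, and bars are mean and SD over 6 libraries. Prdm12 and Gm13425 do not overlap between groups, and control 6 is the low Prdm12 point at 64.6 CPM.

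Gm13425 fell too, by less. Controls had a lowest, median and highest level of 82.0, 92.0 and 98.9 CPM, and iKO libraries of 41.1, 58.1 and 65.0 CPM. Again no iKO library reached the lowest control. The means were 91.4 ± 6.36 and 56.1 ± 8.91 CPM (SD, n = 6 each), so 61.4% remained. Gm13425 had a log2 fold change of -0.69 ± 0.09 (SE, 95% interval -0.89 to -0.49; edgeR, Benjamini-Hochberg adjusted p = 0.00157). The intervals of the pair of genes do not meet.

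Control 6 stood apart from the other controls in the ratio of the pair. Among the other 5 the library with the lowest level of both genes was control 3, at 107 CPM of Prdm12 and 82.0 CPM of Gm13425, and controls 4 and 5 had the highest levels of both. Control 6, with the lowest Prdm12 of its group, had 91.1 CPM of Gm13425, close to the control median. It gave 70.9 Prdm12 counts per 100 Gm13425 counts, while the other 5 controls gave 131 to 152 and the iKO libraries 36.2 to 47.3. Relative to 1000 nociceptor marker counts, Gm13425 gave 13.7 ± 0.876 counts in controls and 8.60 ± 0.903 in iKO libraries (SD, n = 6 each), with 14.6 in control 6. Library iKO 1 had the lowest level of both genes, at 18.6 and 41.1 CPM.

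Of the 6 genes, then, 2 were called lower and 0 higher, where 0.946% of all genes tested were called (0.537% higher and 0.409% lower). Groups did not overlap for the same pair, Prdm12 and Gm13425. Among all genes tested, 0.665% had every iKO library below every control and 0.879% every iKO library above. None of the 4 genes of the methyltransferase complex was called, by edgeR, DESeq2 or limma-voom, and none had an unadjusted p under 0.05 in edgeR.

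Ehmt1, encoding GLP, was the steadiest of the 6 genes. Its lowest, median and highest levels were 33.5, 35.6 and 37.6 CPM in controls and 34.7, 36.4 and 38.4 CPM in iKO libraries, on 518 to 696 counts. The ranges overlapped, with 2 controls below every iKO library. Its biological coefficient of variation was 6.53%, against 12.8% as the common value of all genes. Between groups its log2 fold change was 0.04 ± 0.05 (SE; edgeR, Benjamini-Hochberg adjusted p = 0.838), and the 95% interval of the change ran from -4.62% to 10.9%.

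Ehmt2, encoding G9a, had the highest levels of the complex. Its lowest, median and highest levels were 65.5, 69.0 and 78.1 CPM in controls and 71.2, 76.3 and 88.6 CPM in iKO libraries. All 6 iKO libraries lay above the control median, yet the ranges overlapped, because both corn-oil controls (78.1 and 73.2 CPM) lay among the iKO values. The means were 70.1 ± 4.83 and 77.4 ± 6.06 CPM (SD, n = 6 each). The log2 fold change of 0.13 ± 0.06 (SE, 95% interval -0.00 to 0.26) did not pass (edgeR, Benjamini-Hochberg adjusted p = 0.536). The highest value, 88.6 CPM, was that of iKO 1, and without that library the log2 fold change was 0.10.

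The balance of the paired enzymes was compared as a ratio of counts, which was not tested. Ehmt1 gave 50.9 ± 2.39 counts per 100 Ehmt2 counts in controls and 47.2 ± 4.09 in iKO libraries (SD, n = 6 each). The lowest ratio, 42.0, was again iKO 1, and the other 5 iKO libraries gave 44.8 to 52.6 against 48.2 to 55.4 in controls. Libraries iKO 1, 2, 3 and 6 lay below every control, iKO 6 barely so (48.17 against 48.19). Libraries iKO 4 and 5 lay within the control range. The groups overlapped.

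Wiz ran from 36.0 to 53.7 CPM in controls with a median of 44.3, and from 41.9 to 54.5 CPM in iKO libraries with a median of 47.3. Its log2 fold change was 0.13 ± 0.09 (SE, 95% interval -0.07 to 0.33; edgeR, Benjamini-Hochberg adjusted p = 0.702). In GENCODE M21 22.1% of Wiz's exon bases are shared with Gm26858 on the opposite strand, which has no row in the count tables, so its reads could count as Wiz. The spread between controls was the widest of the complex, with a coefficient of variation of 14.7%.

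Zfp644 ran from 53.0 to 63.3 CPM in controls with a median of 59.5, and from 45.1 to 64.5 CPM in iKO libraries with a median of 56.0. Its log2 fold change was -0.06 ± 0.07 (SE, 95% interval -0.22 to 0.09; edgeR, Benjamini-Hochberg adjusted p = 0.813). The lowest of all 12 libraries was iKO 1, at 45.1 CPM. That library thus had the lowest Zfp644 and the highest Ehmt2 of the series. It also had high glial, macrophage, fibroblast, endothelial and red blood cell marker counts, whose part in these values was not tested.

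Because the controls were mixed, each kind was also compared with iKO in a fit with 3 groups. The comparisons share the iKO libraries. Against the 4 tamoxifen-injected controls 1.35% of genes were called, and against the 2 corn-oil controls 0.146%. Prdm12 was called in both, with log2 fold changes of -2.40 ± 0.19 and -2.15 ± 0.25 (SE; edgeR, Benjamini-Hochberg adjusted p = 0.000176 and 0.00908). Gm13425 had a log2 fold change of -0.69 in each, called against tamoxifen (edgeR, Benjamini-Hochberg adjusted p = 0.00544) and not against corn oil (adjusted p = 0.143), where 2 libraries stand for the group.

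Ehmt2 and Wiz gave different values against the 2 kinds of control. Ehmt2 was 67.3 ± 2.01 CPM in the 4 tamoxifen-injected controls (SD) and had a mean of 75.6 CPM in the 2 corn-oil controls. Every iKO library exceeded every tamoxifen-injected control, as was so for 2.55% of all genes. The log2 fold change was 0.20 ± 0.05 (SE, 95% interval 0.08 to 0.32; edgeR, Benjamini-Hochberg adjusted p = 0.0926), short of the threshold. Against corn oil it was -0.03 ± 0.07. Wiz gave 0.21 ± 0.09 against tamoxifen (edgeR, Benjamini-Hochberg adjusted p = 0.264) and -0.07 ± 0.12 against corn oil.

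Zfp644 had the reverse order, with -0.12 ± 0.07 against tamoxifen and 0.08 ± 0.10 against corn oil, and Ehmt1 gave 0.06 ± 0.05 and -0.02 ± 0.07 (SE). Between the 2 kinds of control none of the 16384 genes was called by edgeR (1900, or 11.6%, at an unadjusted p under 0.05). Ehmt2 was the 1 gene of the 6 with an unadjusted p under 0.05 there, at a log2 difference of 0.23 ± 0.08 (SE, corn oil minus tamoxifen; edgeR, Benjamini-Hochberg adjusted p = 0.395). The same difference for Wiz was 0.28 ± 0.13 (SE, edgeR, Benjamini-Hochberg adjusted p = 0.430). Tamoxifen-injected controls carry 0 or 1 floxed alleles and both corn-oil controls 2, and they also fall in separate runs of the submitters' sample numbers. Among the controls alone, agent, genotype and run therefore cannot be told apart. The iKO libraries fall in both runs. With run as a term, the log2 fold change of Ehmt2 between iKO and all controls was 0.12 (edgeR, Benjamini-Hochberg adjusted p = 0.552).

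**Figure D3:**
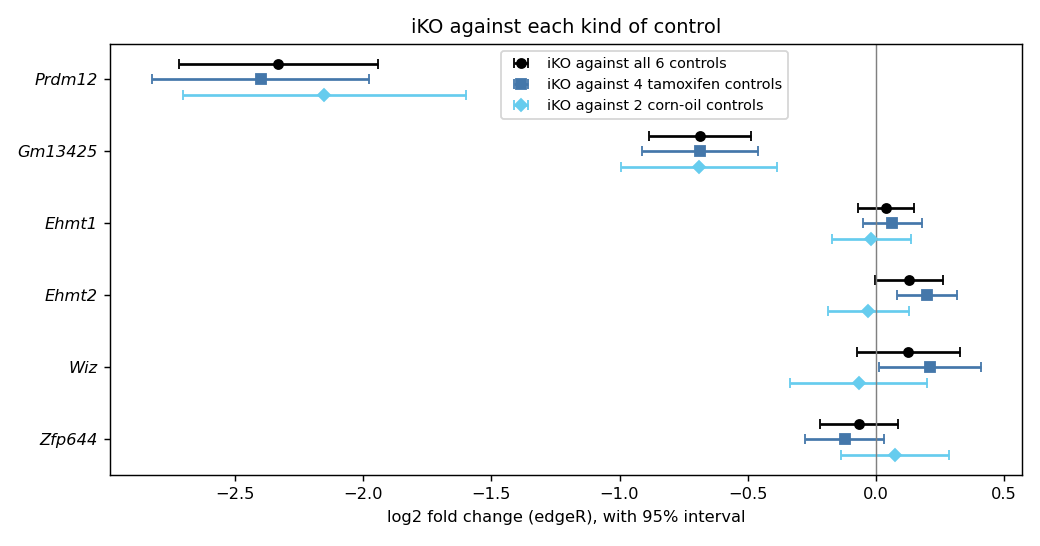
Log2 fold change (x axis) with 95% interval of each gene in iKO libraries against all 6 controls, the 4 tamoxifen-injected controls and the 2 corn-oil controls. Prdm12 and Gm13425 lie left of 0 in all 3 comparisons, and the 4 genes of the complex lie nearer 0. Against tamoxifen-injected controls Ehmt2 lies at 0.20 and Wiz at 0.21, with intervals, not adjusted for the number of genes, above 0. Neither gene was called. Against corn-oil controls they lie at -0.03 and -0.07.

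Within each run of sample numbers Prdm12 had a lower mean in iKO. Replicates 1 to 4 had means of 123 CPM in controls and 22.9 CPM in iKO, and replicates 5 and 6 of 106 and 24.1 CPM. In replicates 5 and 6 alone, 2 libraries against 2 with controls at 147 and 64.6 CPM, Prdm12 was not called (log2 fold change -2.13 ± 0.61 SE; edgeR, Benjamini-Hochberg adjusted p = 0.622). Gm13425 had 90.1 and 52.1 CPM in the first run and 94.0 and 64.1 CPM in the second. Ehmt2 had 67.3 and 78.8 CPM in the first and 75.6 and 74.5 CPM in the second.

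No difference between the sexes was called in the 6 genes. Across groups 0.0549% of genes were called between males and females by edgeR, none of them among the 6, and none of the 6 had an unadjusted p under 0.05. Prdm12 averaged 124 CPM in female and 114 CPM in male controls, and 22.5 and 24.2 CPM in female and male iKO libraries. In the 7 males alone Prdm12 was not called between groups (log2 fold change -2.24, edgeR, Benjamini-Hochberg adjusted p = 0.0616). The interaction of group and sex was 0.22 on the log2 scale for Prdm12 (95% interval -0.57 to 1.01), an interval wide enough to hide a moderate difference. No gene was called for the interaction by edgeR (589 at an unadjusted p under 0.05, none of the 6).

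Per length, Prdm12 was the most abundant of the 6 genes in controls and no longer so in iKO libraries. Dividing CPM by all exon bases, controls had 47.5 ± 11.9 CPM per kb of Prdm12, 17 ± 1.18 of Gm13425 and 12.8 ± 0.879 of Ehmt2 (SD, n = 6). These 3 ranges did not overlap. Wiz (4.76 ± 0.698), Ehmt1 (4.39 ± 0.196) and Zfp644 (4.21 ± 0.252) followed, with overlapping ranges, near the median of 4.33 CPM per kb over 16354 genes. Prdm12 lay above 94.6% of those genes in controls.

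In iKO libraries Ehmt2 came first, at 14.1 ± 1.10 CPM per kb, above Gm13425 (10.4 ± 1.65) and Prdm12 (9.44 ± 1.02), whose ranges overlapped. Prdm12 still lay above 69.6% of genes there. The order of the lower 3 rests on the length used: with the longest transcript in place of all exon bases, controls had 10.2 of Zfp644, 8.69 of Wiz and 5.98 of Ehmt1 per kb, and Ehmt2 rose to 17.4, level with Gm13425.

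Other genes of the pathway were taken from 6 lists. All 15 genes whose proteins bind G9a/GLP or share a complex with it were tested, and 0 were called by edgeR, DESeq2 or limma-voom. At an unadjusted p under 0.05 there were 2, Mphosph8 and Cdyl, where 9.52% of all genes tested had such a p (1559 of 16384). Mphosph8 had the smallest p, at 88.6 ± 7.98 CPM in controls and 77.0 ± 6.78 in iKO libraries (SD, n = 6 each, log2 fold change -0.18 ± 0.06 SE; edgeR, Benjamini-Hochberg adjusted p = 0.337). Fold changes of 12 were below 0 and of 3 above, with a median of -0.08 against 0.00 over all genes tested (1.57e-05 unrounded).

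Of 9 other H3K9 methyltransferases and cofactors, such as Setdb1 and Suv39h1, 0 were called by edgeR, DESeq2 or limma-voom, 0 had an unadjusted p under 0.05, and the median log2 fold change was -0.01. Atf7ip, a partner of SETDB1, had the smallest p (log2 fold change -0.07, edgeR, Benjamini-Hochberg adjusted p = 0.713). Of 11 H3K9 demethylases 0 were called by any of the 3 tools and 2 had an unadjusted p under 0.05, beside the 9.52% of all genes (median -0.01). Kdm4c, a demethylase of the trimethyl mark, had 26.5 ± 0.915 CPM in controls and 24.2 ± 1.62 in iKO libraries (SD, n = 6 each, log2 fold change -0.14; edgeR, Benjamini-Hochberg adjusted p = 0.491).

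Genes tied to Prdm12 in the embryo were partly below detection. Of 5 that depend on it in embryonic sensory neurons, 3 could be tested, and 0 were called by edgeR (2 by DESeq2, 0 by limma-voom; 2 at an unadjusted p under 0.05, as had 9.52% of all genes). Tlx3, a homeobox factor of sensory neurons, had 41.7 ± 7.85 CPM in controls and 55.6 ± 5.62 in iKO libraries (SD, n = 6 each). It had a log2 fold change of 0.40 ± 0.11 (SE; edgeR, Benjamini-Hochberg adjusted p = 0.164). Without control 5 it passed (edgeR, Benjamini-Hochberg adjusted p = 0.00742). DESeq2 called it. Neurod1, a proneural factor, had 0.957 ± 0.383 and 0.999 ± 0.363 CPM (SD, n = 6 each; log2 fold change 0.05). The proneural genes Neurog1 and Neurog2 had only 46 and 18 counts over all 12 libraries and were not tested.

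Of 5 genes that Prdm12 opposes in the embryo, 1 could be tested, and it was called higher. Nkx6-2, a homeobox factor of the neural tube and of glia, ran from 0.236 to 0.799 CPM in controls and from 0.755 to 1.84 CPM in iKO libraries. The means were 0.461 ± 0.214 and 1.37 ± 0.369 CPM (SD, n = 6 each), and the ranges overlapped slightly. Nkx6-2 had a log2 fold change of 1.56 ± 0.30 (SE; edgeR, Benjamini-Hochberg adjusted p = 0.0199). It rests on 189 counts in all, and 12.9% of its exon bases are shared with Inpp5a on the opposite strand, which had 4203 counts. The call was lost when control 1, 2 or 4, or iKO 4 or 6, was left out, with log2 fold changes of 1.47 to 1.54 (edgeR, Benjamini-Hochberg adjusted p = 0.0751, 0.0783, 0.050005, 0.0606 and 0.0658). It was also lost in males only (1.40, edgeR, Benjamini-Hochberg adjusted p = 0.300) and in replicates 5 and 6 only (0.63, adjusted p = 0.794), while without the corn-oil controls the value was 2.03 (adjusted p = 0.00644).

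The other 4 opposed genes were scarcely present. Dbx1 had 0 counts in all 12 libraries, which allows a level of up to 0.0151 CPM by counting error. Phox2a had 1 count and Nkx6-1 66 over all libraries.

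G9a is known to silence potassium channel and receptor genes in injured ganglia, and 6 such genes were examined in these uninjured ones. By edgeR 0 of 6 were called (3 at an unadjusted p under 0.05, as had 9.52% of all genes; 1 by DESeq2, 0 by limma-voom), 3 had fold changes above 0 and 3 below, and the median was -0.08. Kcnma1, the large-conductance calcium-activated potassium channel, came closest. It had 115 ± 13 CPM in controls and 85.2 ± 11.3 in iKO libraries (SD, n = 6 each). Its log2 fold change was -0.42 ± 0.10 (SE; edgeR, Benjamini-Hochberg adjusted p = 0.0659).

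Kcnma1 passed without control 6 (log2 fold change -0.46; edgeR, Benjamini-Hochberg adjusted p = 0.0212) and without iKO 1 (-0.36, adjusted p = 0.0173), and iKO 1 had its lowest level, 64.1 CPM. Kcna4, a voltage-gated potassium channel, had a log2 fold change of -0.26 ± 0.08 (SE; edgeR, Benjamini-Hochberg adjusted p = 0.248). Oprm1, the mu opioid receptor, had -0.25 ± 0.10 (SE; adjusted p = 0.433). The channel gene Kcnd2 (0.21) and the cannabinoid receptor gene Cnr1 (0.09) had values above 0, neither called.

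**Figure D4:**
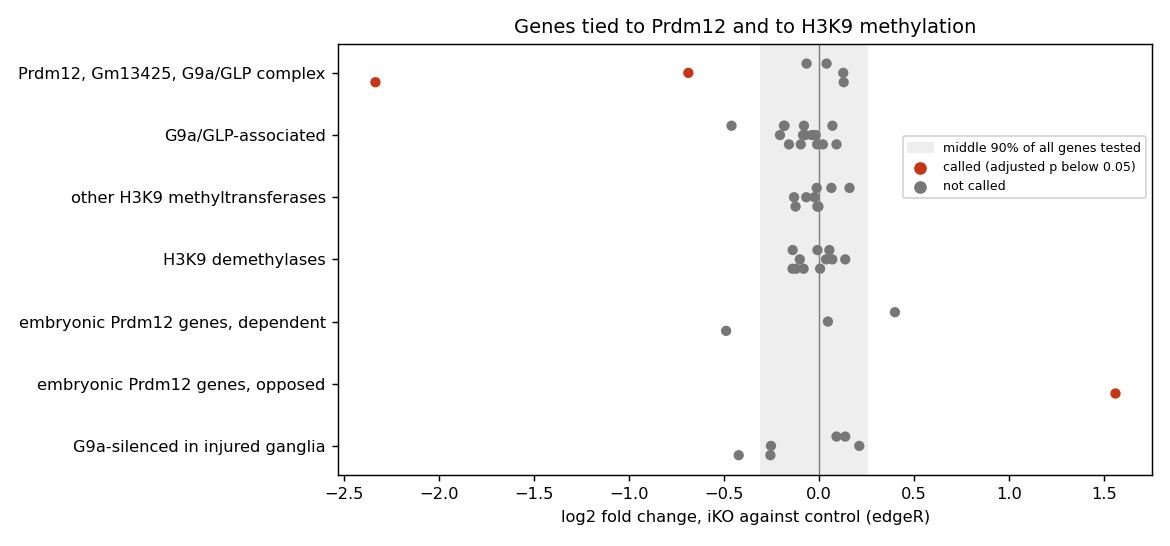
Log2 fold change of iKO against control (x axis) of the 6 genes and of the tested genes of 6 related lists; each point is a gene, red points passed an adjusted p of 0.05 and the grey band spans the middle 90% of all genes tested. Prdm12, Gm13425 and Nkx6-2 are the 3 called genes, and in the 3 lists of the histone mark the fold changes lie within the band except that of Uhrf1, at -0.46.

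The genes whose pattern was most like that of Prdm12 were found by the root mean square difference of standardised log2 CPM over the 12 libraries, among 12452 genes. The nearest 5 were A3galt2 (0.269), Mettl7a3 (0.306), Bag2 (0.310), Grik1 (0.315) and Lap3 (0.326), against a median of 1.36 over all genes. All 5 had lower levels in iKO libraries, which this measure selects for. Grik1, a kainate receptor subunit, had 488 ± 68.6 CPM in controls and 264 ± 24.9 in iKO libraries, and A3galt2, a galactosyltransferase, 73.6 ± 8.95 and 44.3 ± 3.40 (SD, n = 6 each). In control 6 these had 412 and 62.4 CPM. Mettl7a3 has near-identical copies, so its counts are uncertain.

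After each group was centred on its own mean, which takes the group difference out, other genes came nearest: Basp1 (0.411), Tlx2 (0.415), Larp1b (0.483), Gsr (0.485) and Kcnk12 (0.509), against a median of 1.31. All 5 were lower in control 6 than on average in controls, which this measure selects for, as Prdm12 was low there. Basp1, a growth-cone membrane protein, had 92.9 CPM there and a control mean of 140 ± 23.2 CPM, and Tlx2, a homeobox factor, 34.4 CPM and 45.1 ± 7.16 CPM (SD, n = 6). None of the 5 was called between groups (Tlx2 came nearest, edgeR, Benjamini-Hochberg adjusted p = 0.381). Gm13425 was at 1.06 from Prdm12 on this scale, between these genes and the median.

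For the paired enzymes the same measure gave Padi2 (0.525), Tead1 (0.534) and Cxcr4 (0.548) nearest to Ehmt1. It gave Wbp1 (0.343), Ghdc (0.343) and Zfp710 (0.348) nearest to Ehmt2. Ehmt1 and Ehmt2 were at 1.09 from each other, and the most unlike pair of the 6 genes was Ehmt2 with Zfp644, at 1.88.

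Prdm12 levels can be set beside the rest of the response, library by library. Each library was placed on the genes called without it (Prdm12, Gm13425 and the complex left out), with 0 for the mean of the other controls and 1 for the mean of the other iKO libraries. Controls 1 to 4 had median positions of 0.07, -0.01, -0.06 and -0.03, with Prdm12 at 107 to 139 CPM. Control 6, with 64.6 CPM, lay at 0.21, and control 5, with the highest Prdm12 level of 147 CPM, at 0.27. Both received corn oil.

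The iKO libraries 2 to 6 lay at 1.04, 1.06, 0.78, 0.98 and 0.91. Library iKO 1, with the lowest Prdm12 level, lay at 0.56 over 358 genes, with quartiles of -0.27 and 1.13. The Prdm12 level and the position did not follow the same order within either group. The genes used differ between libraries (87 to 358), and iKO 2 to 6 spanned only 22.9 to 25.4 CPM of Prdm12. Whether the position depends on the Prdm12 level was not tested.

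**Figure D5:**
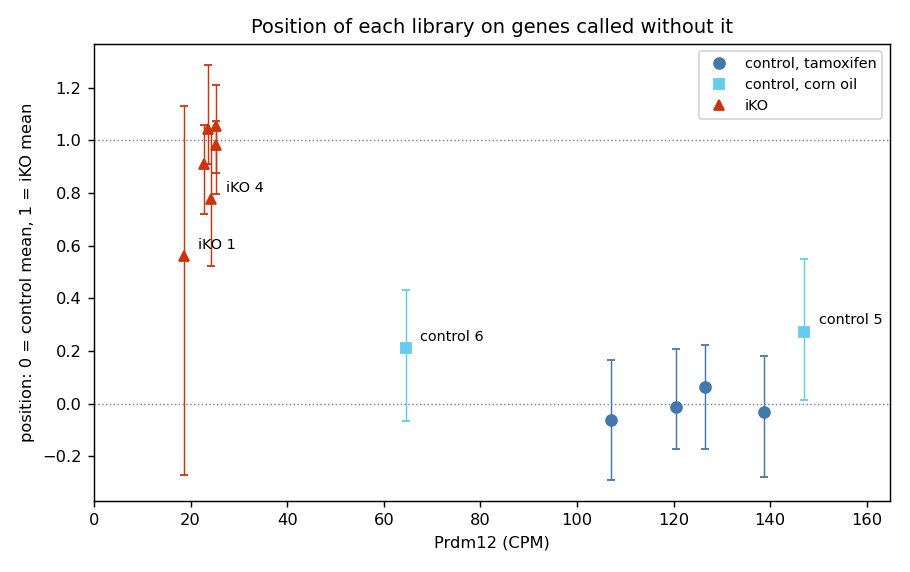
Position of each library (y axis; 0 is the mean of the other controls, 1 that of the other iKO libraries) on genes called without it, against its Prdm12 level in CPM (x axis); points are medians and bars quartiles over genes. Controls 5 and 6 lie at 0.27 and 0.21, with Prdm12 levels of 147 and 64.6 CPM, and iKO 1 lies at 0.56.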

How the data were processed

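The authors deposited raw counts per gene, 1 table per library, with no normalization. The tools, per the submitters' processing notes, were featureCounts 2.0.1, STAR 2.7.8a and bcl2fastq 2.20.0.422 on GRCm39; counting options were not stated. GENCODE M21 (an older build) gave names (52083 of 55416 identifiers, 99.67% of counts), exon lengths and overlaps; promoters came from RefSeq (GRCm38.p6). The genes, lists and tests were chosen with earlier results of these data known.

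Counts were scaled by TMM and filtered with filterByExpr (16384 genes). edgeR 4.0.16 (R 4.3.3) fitted group and sex with robust quasi-likelihood tests and 9 residual degrees of freedom, 2-sided, with Benjamini-Hochberg adjustment over all genes and a threshold of 0.05. Alternatives included DESeq2 1.42.0 and limma-voom (limma 3.58.1). The fit was tested on simulated data.

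Lists are named by up to 3 called genes, or else by the smallest p; every tested gene is given for the embryonic and G9a-silenced lists, except a few that are not reported here, which stay in the counts. Likeness used genes with mean log2 CPM of 2 or more, the nearest 5 to Prdm12 and 3 to Ehmt1 and Ehmt2. Replicate numbers did not pair the samples (correlations of deviations from -0.15 to 0.22).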

Additional observations from a re-analysis of the deposited data

Results flagged for a closer look

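In a group of 6, a library was noted where its gap to the nearest other exceeded 0.625 of the group's range. Chance meets this test in about 1 of 20 groups, and 7 of 62 groups met it. The groups include genes picked above for a library pattern like that of Prdm12, Ehmt1 or Ehmt2. Mettl7a3, Basp1, Larp1b and Zfp710 are such genes, so the 7 of 62 cannot be set against that rate. Library iKO 1 was the low one for 4 genes. Prdm12 had 18.6 CPM there against 22.9 to 25.4 in the other iKO libraries, and Mettl7a3 had 10.5 against 13.7 to 15.5. Kcnma1 had 64.1 CPM against 85.2 to 96.7, and Kcna4 had 24.0 against 29.5 to 32.7. Control 6 was low for Basp1, at 92.9 CPM against 142 to 153, and for Larp1b, at 15.1 against 19.5 to 22.1. Control 5 was high for Zfp710, at 22.6 CPM against 16.5 to 18.2.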

How the results depend on the processing

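The log2 fold change of Prdm12 ran from -2.44 to -2.13 over 26 alternatives. It was called in 24 of them. It was not called in males only (-2.24, edgeR, Benjamini-Hochberg adjusted p = 0.0616) or in replicates 5 and 6 only (-2.13, adjusted p = 0.622), a comparison of 2 libraries with 2 added after seeing the data. Gm13425 ran from -0.78 to -0.55 and was called in all 26 (highest adjusted p 0.0442). None of Ehmt1, Ehmt2, Wiz and Zfp644 was called in any; Ehmt2 ran from -0.02 to 0.21. Genes called, 155 in the fit reported, were 294 by DESeq2, 253 with no count filter, 235 without the corn-oil controls, 341 without iKO 1 and control 6, 45 in males only, 35 in replicates 1 to 4, 82 in replicates 5 and 6, and 92 to 364 leaving out 1 library (364 lacking iKO 1, 92 and 103 lacking controls 1 and 2, 93 and 97 lacking iKO 5 and 6). With the replicate block, 79 were called; the numbers do not pair the samples. The G9a-silenced list had 1 call with library totals, by DESeq2, with no count filter, with no sex term, with run as a term, without the corn-oil controls, and without iKO 1 and control 6 (0 to 1 leaving out 1 library). The library whose loss gave the call was iKO 1 or control 6. The Prdm12-dependent list had 2 calls by DESeq2, 1 with the replicate block and 1 without the corn-oil controls (0 to 1 leaving out 1 library). The opposed list had 0 with the replicate block, in males only and in replicates 5 and 6 (0 to 1 leaving out 1 library). With at least 10 counts per library its 1 tested gene, Nkx6-2, was filtered out and had no test. The cause of these changes was not tested.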
